A study of Mus musculus with 12 samples.

Results

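The Dlx family of homeobox genes has 6 members in the mouse, *Dlx1* to *Dlx6*, and each of them had 1 row by its gene symbol in the 36186 rows of RNA-Seq values examined here. The values are NRPKM, read counts scaled for transcript length and library size (RPKM) that the authors normalized once more between libraries. There were 12 libraries of E15.5 forelimb zeugopod, the segment of the radius and ulna, on a mixed 129/CD-1 background. WT resting, WT proliferative and WT hypertrophic chondrocytes gave 3 libraries each, and *aadd* mutants, which are *Hoxa9,10,11-/-* and *Hoxd9,10,11-/-*, gave the other 3. The cells were taken by laser capture microdissection, and the study describes them as mostly chondrocytes with some perichondrium.

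In the GEO labels the hypertrophic samples appear as hyperproliferative, and *aadd* is listed under the resting compartment. The study's methods describe the *aadd* samples as the whole, undifferentiated chondrocyte population of the small mutant zeugopod, so the mutant has no matching compartments of its own. In each of the 6 mutated Hox genes a LoxP insertion with a small deletion shifts the reading frame in the first exon, which need not remove the transcript. The *aadd* range overlapped the WT range for 3 of the 6 and lay above it for *Hoxd9*, *Hoxd10* and *Hoxd11*, so these levels do not test the labels. The depth behind the values was 1890000 to 3240000 reads per library, as read from the value that 1 read takes. The cartilage matrix genes, 10 collagens, proteoglycans and matrilins that mark chondrocytes, summed to between 716 and 5142 NRPKM. The lowest sums were those of WT hypertrophic replicates 2 and 3.

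Replicate 1 of WT hypertrophic stood apart from the other two. Its summed osteoclast markers were 51.5 NRPKM against 995 and 1351, its endothelial markers 21.7 against 212 and 304, and its cartilage matrix genes 2998 against 716 and 1049. *Mmp13*, a collagenase of late hypertrophic cartilage and bone, was at 3.05 NRPKM in it and at 735 and 661 in replicates 2 and 3. Calls that use the WT hypertrophic group are therefore given with and without replicate 1.

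Dlx proteins are homeodomain transcription factors related to Distal-less of the fly. The genes lie in linked pairs that point towards each other, and the members of a pair share enhancers and are often expressed in the same cells. One gene of each pair belongs to the subfamily of *Dlx2*, *Dlx3* and *Dlx5* and the other to the subfamily of *Dlx1*, *Dlx4* and *Dlx6*. In the skeleton, *Dlx5* and *Dlx6* are known for promoting chondrocyte maturation and osteoblast differentiation, *Dlx3* is known as a regulator of osteoblasts and of ectodermal organs, and *Dlx1* and *Dlx2* are best known from the forebrain and the first pharyngeal arch. BMP signals induce several Dlx genes, Msx proteins compete with Dlx proteins for the same DNA sites, and *Runx2*, *Sp7* and *Ibsp* are among the genes that Dlx factors are known to activate in bone.

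In these data *Dlx5* was the most abundant member in all 12 libraries, *Dlx3* was second in 10 of them and *Dlx6* in 2, and *Dlx4*, *Dlx2* and *Dlx1* were low or absent. *Dlx3*, *Dlx5* and *Dlx6* were lowest in WT resting or *aadd* cells, higher in WT proliferative cells and highest in WT hypertrophic cells. *Dlx5* in *aadd* overlapped WT resting and did not pass the test. *Dlx3* was lower in *aadd* than in WT resting by the unadjusted criteria but not after adjustment. Its libraries overlapped as well, and the call was lost without *aadd* replicate 1 or without *aadd* replicate 3.

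**Figure D1:**
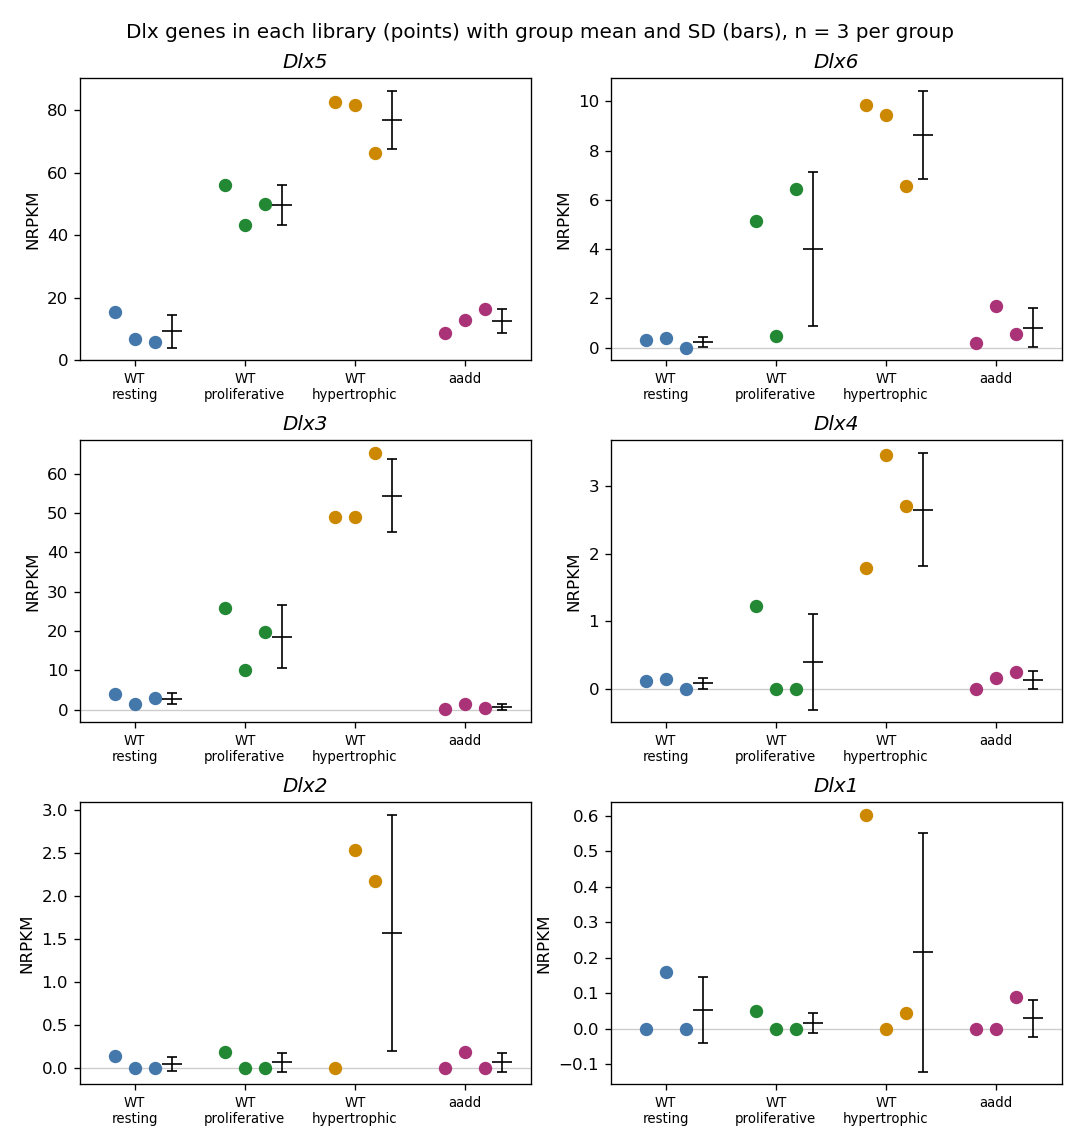
NRPKM of each Dlx gene (vertical axis, a separate linear scale per gene) in the 4 groups, with 1 point per library in the order of replicates 1, 2 and 3 and a bar for the group mean with its SD (n = 3). The genes of a linked pair share a row, and the WT hypertrophic points of *Dlx5* lie between 66.2 and 82.6 NRPKM while those of *Dlx1* reach 0.601.

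The test used limma on log2(NRPKM + 0.1), the scale of all log2 fold changes given, and took in the 10936 genes that reached 5 NRPKM in 3 or more libraries. A call means the study's criteria, an unadjusted *P* of at most 0.05 and a fold change (FC) of 2 or more for 2 WT compartments or 1.5 or more for *aadd* against WT, and the Benjamini-Hochberg adjusted *P* over all genes tested is given beside it. The study used the FC of 1.5 for *aadd* against WT resting, and it was carried over here to the other WT compartments. For *aadd* against WT the study also tested pooled reads (Audic Claverie), which found more differences and was not repeated here. *Dlx5* had at least 5 NRPKM in all 12 libraries. *Dlx3* entered the test through 3 WT proliferative and 3 WT hypertrophic libraries, and *Dlx6* through 2 and 3. These 2 genes had to be high somewhere to be tested, so the number of members called is a description and gives no support of its own. Their adjusted *P* values depend on this filter too, and the closing section gives those that passed 0.05 without it. *Dlx1*, *Dlx2* and *Dlx4* never reached 5 NRPKM. With 3 libraries against 3, an exact permutation test of a single value cannot go below *P* = 0.1. Nothing in the labels says whether each library came from its own embryo, although the study speaks of independent sets, so the *P* values measure the spread between these libraries.

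The *Dlx5* and *Dlx6* pair lies on mouse chromosome 6 (mm10). *Dlx5* (gene 13395, 3 exons, minus strand) spans chr6:6877805-6882068 and *Dlx6* (gene 13396, 3 exons, plus strand) spans chr6:6863334-6867970, with a gap of 9835 bases between them. The minus-strand RNA gene *Dlx6os1*, also known as Evf2, spans chr6:6820546-6869533 and so covers all of *Dlx6*. A second RNA gene of the minus strand, the row *Dlx6as2* at chr6:6863797-6865150, lies within *Dlx6*.

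*Dlx5* was at 15.4, 6.81 and 5.84 NRPKM in the WT resting libraries 1, 2 and 3, and at 56.1, 43.3 and 49.9 NRPKM in WT proliferative. It was at 82.6, 81.7 and 66.2 NRPKM in WT hypertrophic and at 8.80, 12.8 and 16.4 NRPKM in *aadd*. The 3 WT groups did not overlap and stood in the order resting, proliferative, hypertrophic, while the *aadd* libraries lay across the range of WT resting, 1 of them above it. Group means were 9.36 ± 5.27 (SD, n = 3), 49.8 ± 6.37, 76.8 ± 9.21 and 12.7 ± 3.80 NRPKM. The lowest of these values rests on about 21 reads.

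*Dlx6* was at 0.316, 0.389 and 0 NRPKM in WT resting and at 5.12, 0.488 and 6.43 NRPKM in WT proliferative. It was at 9.87, 9.42 and 6.58 NRPKM in WT hypertrophic and at 0.168, 1.70 and 0.554 NRPKM in *aadd*. The WT hypertrophic libraries all lay above the other 9. WT proliferative replicate 2 was near the resting values and apart from the other 2 proliferative libraries. The 3 WT resting libraries held about 4 reads of *Dlx6* in all, and 3 reads would be worth 0.458 to 0.564 NRPKM there, so the resting level is at the limit of what this depth can show. Group means were 0.235 ± 0.207 (SD, n = 3), 4.01 ± 3.12, 8.62 ± 1.78 and 0.807 ± 0.796 NRPKM.

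The *Dlx3* and *Dlx4* pair lies on chromosome 11. *Dlx3* (gene 13393, 3 exons, plus strand) spans chr11:95120117-95125291 and *Dlx4* (gene 13394, 3 exons, minus strand) spans chr11:95140447-95145801, 15156 bases away. *Dlx3* was at 4.03, 1.44 and 3.0 NRPKM in WT resting and at 26.0, 10.0 and 19.7 NRPKM in WT proliferative. It was at 49.1, 49.0 and 65.2 NRPKM in WT hypertrophic and at 0.276, 1.57 and 0.403 NRPKM in *aadd*. The 3 WT groups again did not overlap and stood in the same order as for *Dlx5*. Replicates 1 and 3 of *aadd* were the lowest of the 12 libraries, but replicate 2 of *aadd* lay above replicate 2 of WT resting, so these 2 groups overlapped. The *aadd* values rest on about 2, 9 and 3 reads. Group means were 2.82 ± 1.30 (SD, n = 3), 18.6 ± 8.02, 54.4 ± 9.32 and 0.750 ± 0.71 NRPKM.

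*Dlx4* was at 0.121, 0.148 and 0 NRPKM in WT resting, at 1.22, 0 and 0 in WT proliferative, and at 0, 0.162 and 0.249 in *aadd*. It was at 1.79, 3.45 and 2.70 NRPKM in WT hypertrophic, which was above the other 9 libraries. The 3 hypertrophic libraries held about 53 reads and the resting libraries about 2. In every library in which both had reads, *Dlx3* was between 1.62 and 33.4 times as high as *Dlx4* per length of transcript.

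The *Dlx1* and *Dlx2* pair lies on chromosome 2, *Dlx1* (gene 13390, 3 exons, plus strand) at chr2:71529445-71533981 and *Dlx2* (gene 13392, 3 exons, minus strand) at chr2:71543408-71546754, 9427 bases apart. *Dlx2* was at 0, 2.53 and 2.17 NRPKM in WT hypertrophic, which came to about 20 and 16 reads in replicates 2 and 3. In the other 9 libraries it was at 0.137 in WT resting replicate 1, 0.185 in WT proliferative replicate 1 and 0.184 in *aadd* replicate 2, and at 0 in the rest. The library without *Dlx2* was the hypertrophic replicate 1 that also had few osteoclast and endothelial transcripts. The part of such cells in the *Dlx2* signal was not tested. *Dlx1* was above 0 in 5 libraries and never above 0.601 NRPKM, or about 6 reads. The minus-strand RNA gene *Dlx1os* overlaps it, and in the 4 libraries with both the ratio of *Dlx1* to *Dlx1os* was 0.718 to 0.719. A constant ratio is what 2 rows that count the same reads give, and the use of strand is not given in the sources used here, so the 2 genes cannot be told apart in those 4 libraries, which held at most 2 reads of either row. The rows parted elsewhere. In WT hypertrophic replicate 1 *Dlx1* was at its highest, 0.601 NRPKM, with *Dlx1os* at 0, and in replicate 2 *Dlx1os* was at 0.885 NRPKM, about 2 reads, with *Dlx1* at 0.

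*Dlx6* and *Dlx6os1* were in part subject to the same limit. The ratio of *Dlx6* to *Dlx6os1* was 2.04 within 0.01 in 3 libraries, WT resting replicate 2 and WT proliferative replicates 2 and 3, and varied from 0.244 to 2.66 over the 11 libraries with both. In WT resting replicate 1 *Dlx6os1* held about 18 reads against 2 for *Dlx6*, so not all of its reads were those of *Dlx6*. *Dlx6os1* was the RNA gene of the Dlx loci that had reads in all 12 libraries, at 1.30, 0.191 and 0.281 NRPKM in WT resting, at 3.97, 0.239 and 3.15 in WT proliferative, at 3.71, 4.31 and 3.72 in WT hypertrophic and at 0.656, 0.936 and 0.799 in *aadd*. The row *A730090H04Rik* (Dlx4os), which overlaps the start of *Dlx4*, reached 2.83 NRPKM and *Dlx6as2* (Dlx6os2) reached 0.27 NRPKM.

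The sequence before the start of *Dlx6os1* is shown because this RNA gene varied with *Dlx6* and because Dlx proteins are homeodomain factors. It covers 250 bases before and 50 after the start at chr6:6869484-6869783 on the minus strand (RefSeq, GRCm38.p6, the same build as mm10), and the capitals mark the homeodomain core TAATTA.
Dlx6os1: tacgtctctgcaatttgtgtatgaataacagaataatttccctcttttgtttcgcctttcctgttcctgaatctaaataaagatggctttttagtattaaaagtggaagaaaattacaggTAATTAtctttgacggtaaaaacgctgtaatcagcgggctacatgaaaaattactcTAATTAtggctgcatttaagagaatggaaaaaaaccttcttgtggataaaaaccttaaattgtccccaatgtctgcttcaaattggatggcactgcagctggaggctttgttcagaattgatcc
TAATTA, which reads the same on both strands, occurred 2 times in this window, 130 and 74 bases before the start, and 1 time in that of a second start of the gene at chr6:6861634-6861933. Of 32851 promoter windows of this length, 5.29% held it. The Runx core TGTGGT, searched on both strands and not overlapping the first motif, was in neither window and in 16.8% of all. The windows of *Dlx1*, *Dlx2*, Dlx6os2 and Dlx4os held neither motif. These are letters in a window and not bound sites, and the promoters of *Dlx3*, *Dlx4*, *Dlx5* and *Dlx6* were not analysed here.

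The comparison of WT proliferative with WT resting asks what changes as cells leave the resting compartment. *Dlx5* rose 5.76-fold (log2 2.53, 95% interval 1.63 to 3.42, adjusted *P* = 0.051), *Dlx3* rose 6.43-fold (log2 2.68, 1.54 to 3.83, adjusted *P* = 0.086), and *Dlx6* rose by 3.31 on the log2 scale (0.81 to 5.82, adjusted *P* = 0.21). All 3 met the study's criteria, in a comparison in which 2.56% of the genes tested were called higher. In this unpaired fit none had an adjusted *P* under 0.05, while with the replicate number as a block, which paired these 2 groups, the adjusted *P* was 0.039 for *Dlx3*, 0.073 for *Dlx5* and 0.23 for *Dlx6*. The call on *Dlx6* was lost without WT resting replicate 3 (log2 2.59), without WT proliferative replicate 1 (2.84) and without WT proliferative replicate 3 (2.68). Since *Dlx6* had few reads in WT resting, its fold depends on the added 0.1. By reads per depth, WT proliferative had 18.2 times as much *Dlx6* as WT resting (exact 95% interval 6.74 to 68.9, for 59 against 4 reads, counting error only).

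In bulk samples of this kind, more cells that express a gene and more RNA per cell cannot be told apart. The summed osteoblast markers, 9 genes that include *Sp7*, *Ibsp* and *Dmp1*, were 250.3 to 528 NRPKM in WT resting, 499.9 to 1311 in WT proliferative, 1641 to 3748 in WT hypertrophic and 216 to 618 in *aadd*. The 10 hypertrophic chondrocyte markers summed to 107 to 129 NRPKM in WT resting, 574 to 828 in WT proliferative, 1290 to 2644 in WT hypertrophic and 70.2 to 96.9 in *aadd*. Both sums were thus highest in WT hypertrophic, as *Dlx3* and *Dlx5* were. Its replicate 1 had the lowest sum of both lists, 1641 and 1290 NRPKM, with the highest *Dlx5*, 82.6 NRPKM, and *Dlx3* at 49.1 NRPKM. Single genes did not all follow these sums. *Mmp13* and *Spp1* were at 3.05 and 24.1 NRPKM in replicate 1 and at 735 and 1083 in replicate 2, and *Alpl* and *Vegfa* were also lowest in replicate 1. *Col10a1*, *Ihh*, *Panx3*, *Pth1r*, *Runx2* and *Smpd3* were highest in replicate 1, as *Dlx5* was. Of the osteoblast list, *Sp7* and *Ifitm5* were lowest in replicate 2 and the others in replicate 1. The part of these cells in the Dlx values was not tested. Among single osteoblast genes, the osteocalcin gene *Bglap2* was at 0 in all but WT hypertrophic replicates 2 and 3, where it reached 4.28 NRPKM, and *Bglap* was at 0 to 1.63 NRPKM outside WT hypertrophic and at 1.40 to 3.54 in it. *Ifitm5*, a membrane protein gene of osteoblasts, was at 7.57 to 13.6 NRPKM in WT resting, 37.0 to 133 in WT proliferative, 171 to 263 in WT hypertrophic and 8.27 to 16.7 in *aadd*. The 10 epidermis markers, of interest because *Dlx3* is an epidermal gene, summed to 8.63 to 220 NRPKM in WT resting, 10.1 to 31.9 in WT proliferative, 14.3 to 20.1 in WT hypertrophic and 6.55 to 6.91 in *aadd*. Their sum was thus lowest in *aadd*, as was the mean of *Dlx3*, but within WT resting they ran in opposite order. There the sum was 8.63, 220 and 31.9 NRPKM in replicates 1, 2 and 3, with *Dlx3* at 4.03, 1.44 and 3.0. The part of epidermis in the *Dlx3* values was not tested. The 10 perichondrium and fibroblast markers summed to 317 to 452 NRPKM in WT resting, 257 to 494 in WT proliferative, 227 to 491 in WT hypertrophic and 436 to 689 in *aadd*, and the 10 neuron markers stayed between 7.37 and 29.0 NRPKM.

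Between WT hypertrophic and WT proliferative the members did not all meet the criteria. *Dlx3* rose a further 3.11-fold (log2 1.64, 95% interval 0.73 to 2.54, adjusted *P* = 0.15) and was the one member tested that met the criteria, in a comparison in which 5.32% of genes were called higher. The log2 fold change of *Dlx5* was 0.63 (0.16 to 1.09, adjusted *P* = 0.19), under the FC of 2, although every hypertrophic library lay above every proliferative one. That of *Dlx6* was 1.66 (-0.55 to 3.87, adjusted *P* = 0.35). Without WT hypertrophic replicate 1 the log2 fold changes were 1.71 for *Dlx3* (adjusted *P* = 0.054), 0.57 for *Dlx5* and 1.55 for *Dlx6*.

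Across the whole WT range, from resting to hypertrophic, *Dlx3* rose 19.99-fold (log2 4.32, 95% interval 3.40 to 5.24, adjusted *P* = 0.0041), *Dlx5* rose 8.89-fold (log2 3.15, 2.24 to 4.07, adjusted *P* = 0.010) and *Dlx6* rose by 4.98 on the log2 scale (3.50 to 6.46, adjusted *P* = 0.011). In this comparison 5.84% of the genes tested were called higher. Without WT hypertrophic replicate 1 the 3 log2 fold changes were 4.39, 3.10 and 4.87, and all 3 calls held. By reads per depth, *Dlx6* was 37.5 times as high in WT hypertrophic as in WT resting (exact 95% interval 14.4 to 139, 162 against 4 reads), and 35.3 times without WT hypertrophic replicate 1 (13.4 to 132).

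The low members entered only when the filter was dropped, with 23070 rows tested. *Dlx4* then met the criteria in WT hypertrophic against WT resting (adjusted *P* = 0.041), where 5.95% of rows were called higher, and against WT proliferative (adjusted *P* = 0.34), where 4.41% were. The first of these calls held without WT hypertrophic replicate 1 (adjusted *P* = 0.030), and the second was lost (log2 3.74, adjusted *P* = 0.23). By reads per depth *Dlx4* was 24.5 times as high in WT hypertrophic as in WT resting (exact 95% interval 6.46 to 208, 53 against 2 reads) and 5.68 times as high as in WT proliferative (2.58 to 14.8, 53 against 7 reads). These ratios were 28.0 and 6.49 without WT hypertrophic replicate 1. All 7 proliferative reads came from replicate 1, and without it the ratio was 53 against 0 reads, or at least 7.85-fold higher against a floor of 3 reads over the group. *Dlx2* did not meet the criteria (log2 2.66 against WT resting, 95% interval -1.11 to 6.43), and its 36 reads in WT hypertrophic came from 2 of the 3 libraries. Without replicate 1, the library at 0, it met them (log2 4.20, 95% interval 2.78 to 5.62, adjusted *P* = 0.029). *Dlx6os1* met them between WT hypertrophic and WT resting (log2 2.90, adjusted *P* = 0.12, and 2.94 without replicate 1). No difference was detectable for *Dlx1* at this depth in the 6 pairwise comparisons, with unadjusted *P* of 0.30 to 0.78.

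**Figure D2:**
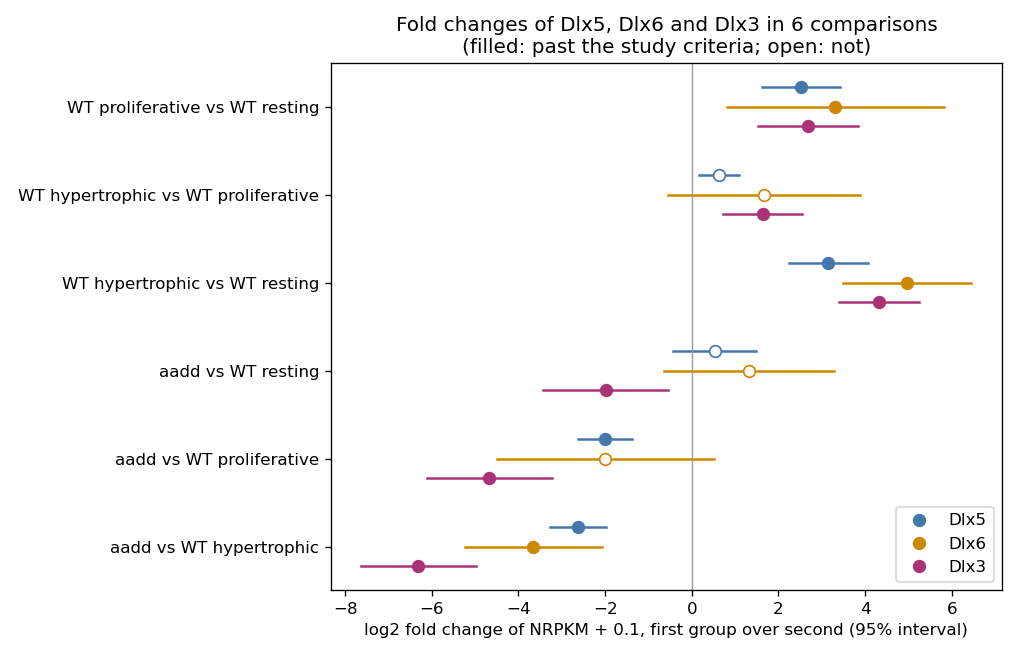
Log2 fold changes (points, horizontal axis) with 95% intervals (lines) of *Dlx5*, *Dlx6* and *Dlx3* in the 6 pairwise comparisons, on log2(NRPKM + 0.1), with filled points for changes past the study's criteria. In *aadd* against WT resting *Dlx3* lies at -1.99 and *Dlx5* at 0.52, and the widest intervals are those of *Dlx6*.

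The *aadd* cells were compared with WT resting cells, the compartment that the labels give them. The study also judged *aadd* most like WT resting by histology and by gene expression. A whole mutant element is set against 1 WT compartment here, so Hox genotype and compartment cannot be told apart. *Dlx3* was 3.97-fold lower in *aadd* on the log2 scale (log2 -1.99, 95% interval -3.44 to -0.54, adjusted *P* = 0.36). It met the study's criteria, in a comparison in which 2.78% of the genes tested were called lower, but not after adjustment, and its libraries overlapped. The call was lost without *aadd* replicate 1 (log2 -1.56) and without *aadd* replicate 3 (-1.77). The size varied too, from a log2 of -1.14 with an added 1 in place of 0.1 to -2.64 without *aadd* replicate 2. Reads pooled per group gave 4.25 times as much *Dlx3* in WT resting as in *aadd* (exact 95% interval 2.35 to 8.23, 60 against 14 reads), an interval that leaves out the spread between libraries. Markers of other cells and stages moved in the same comparison. Of the 3 epidermis markers tested, *Krt10* (log2 -2.34, adjusted *P* = 0.38) and *Perp* (-2.44, adjusted *P* = 0.48) were lower in *aadd*. Both were highest in WT resting replicate 2 (39.1 and 26.9 NRPKM), the resting library with the lowest *Dlx3*. Of the 10 hypertrophic chondrocyte markers, *Panx3* (log2 -2.37, adjusted *P* = 0.33), *Smpd3* (-1.05, adjusted *P* = 0.41) and *Vegfa* (-0.66, adjusted *P* = 0.51) were lower and none higher. The rest did not meet the criteria, with log2 fold changes from -0.48 (*Pth1r*) to 0.65 (*Ihh*). *Vegfa* did not mark the hypertrophic compartment here, with a mean of 33.3 NRPKM in WT hypertrophic and 40.7 in WT resting. Of the 9 perichondrium and fibroblast markers tested, *Gas1* (log2 1.56, adjusted *P* = 0.13) and *Twist1* (1.39, adjusted *P* = 0.25) were higher and none lower, and no osteoblast marker met the criteria. The part of these cells in the *Dlx3* value was not tested.

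*Dlx5* did not differ between *aadd* and WT resting by these criteria, with a log2 fold change of 0.52 (95% interval -0.44 to 1.49, adjusted *P* = 0.74). The interval does not show that the levels were equal, and without WT resting replicate 1 the log2 fold change was 0.95 and met the criteria. The log2 fold change of *Dlx6* was 1.32 (-0.65 to 3.28, adjusted *P* = 0.68) at 0 to about 8 reads per library, and without *aadd* replicate 1 it was 1.99 and met the criteria. *Dlx4*, *Dlx2* and *Dlx1* were at or under 3 reads in all 6 libraries, so no fold is given.

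The ratio of *Dlx5* to *Dlx3* within a library put the 2 genes side by side. It was 3.83, 4.73 and 1.94 in WT resting, 2.16, 4.32 and 2.53 in WT proliferative, 1.68, 1.67 and 1.02 in WT hypertrophic and 31.9, 8.16 and 40.7 in *aadd*. The lowest *aadd* ratio lay above all 9 WT ratios. The geometric means were 21.97 in *aadd* and 3.28 in WT resting, and the two-sided exact permutation test gave *P* = 0.1, which is the smallest 3 against 3 can give. This ratio was chosen after the values of both genes were seen, and in *aadd* it rests on the few *Dlx3* reads.

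**Figure D3:**
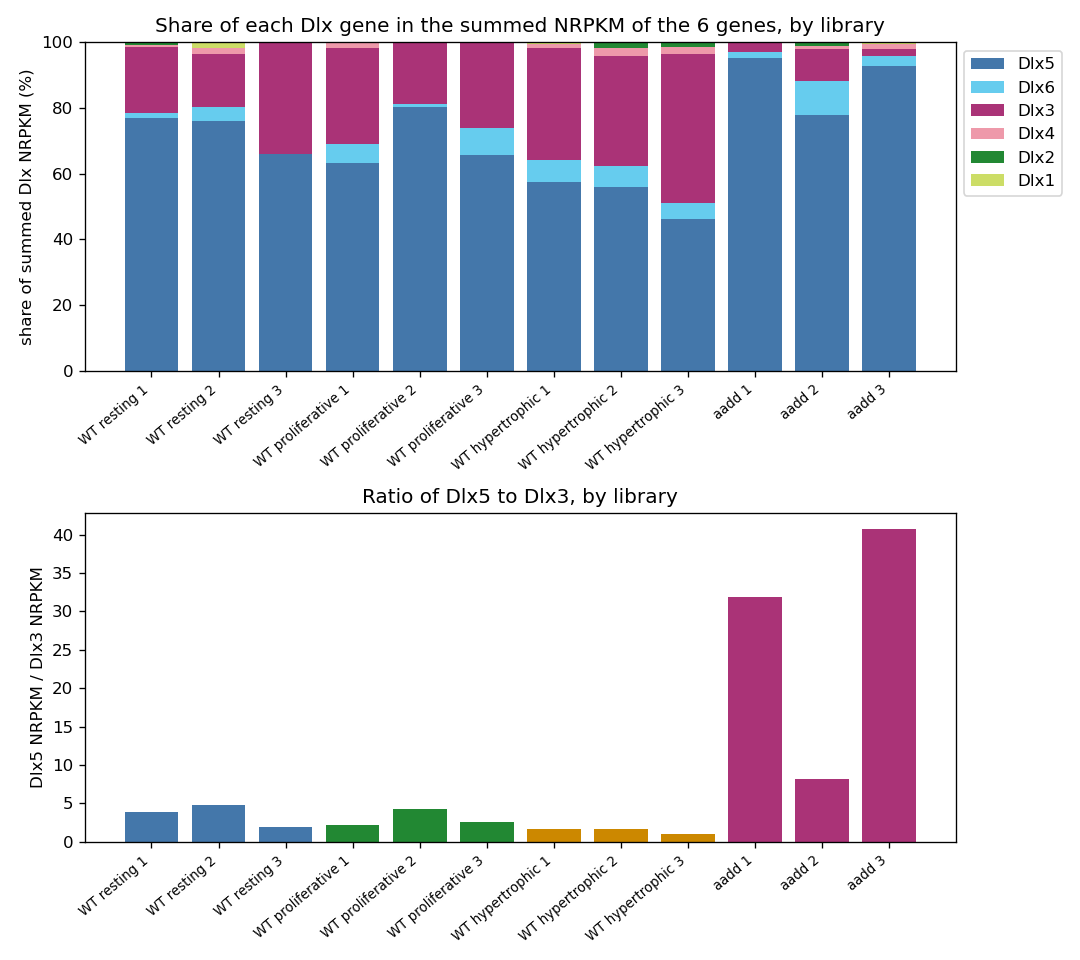
Upper panel, the share of each Dlx gene in the summed NRPKM of the 6 genes (vertical axis, %) in each of the 12 libraries, and lower panel, the ratio of *Dlx5* to *Dlx3* NRPKM in the same libraries. *Dlx5* takes 46.3% of the sum in WT hypertrophic replicate 3 and 95.2% in *aadd* replicate 1, and the *aadd* bars of the ratio are the highest.

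The makeup of the family shifted accordingly. The 6 genes summed to 8.85 to 20.02 NRPKM in WT resting, 53.8 to 88.6 in WT proliferative, 143 to 146 in WT hypertrophic and 9.25 to 17.7 in *aadd*. *Dlx3* made up 16.1% to 33.96% of the sum in WT resting, 18.6% to 29.3% in WT proliferative, 33.5% to 45.6% in WT hypertrophic and 2.27% to 9.56% in *aadd*. The sum in *aadd* was thus within the range of WT resting or close to it, with less of it from *Dlx3*.

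Against the more mature WT compartments the mutant was low in *Dlx3* and *Dlx5*. Against WT proliferative, *Dlx3* was 25.5-fold lower (log2 -4.67, 95% interval -6.12 to -3.22, adjusted *P* = 0.015) and *Dlx5* was lower as well (log2 -2.001, -2.62 to -1.38, adjusted *P* = 0.015), where 6.02% of genes were called lower. *Dlx6* had a log2 fold change of -1.997 (-4.50 to 0.50, adjusted *P* = 0.37) and met the criteria without WT proliferative replicate 2 (log2 -3.10). Against WT hypertrophic, where 9.7% of genes were called lower, *Dlx3* was 79.3-fold lower (log2 -6.31, -7.63 to -4.99, adjusted *P* = 0.0025), *Dlx5* 6.18-fold lower (log2 -2.63, -3.27 to -1.99, adjusted *P* = 0.0042) and *Dlx6* was lower too (log2 -3.66, -5.23 to -2.08, adjusted *P* = 0.025). Without WT hypertrophic replicate 1 these were -6.38, -2.57 and -3.55. Without the filter *Dlx4* was lower too (adjusted *P* = 0.058), where 7.1% of rows were called lower, as was *Dlx6os1* (log2 -2.17, adjusted *P* = 0.016), and both calls held without replicate 1. *Dlx2* met the criteria there without replicate 1 alone (log2 -4.11, adjusted *P* = 0.039). The *Dlx3* folds depend on the added 0.1 because of its few *aadd* reads, and by reads per depth *Dlx3* was 79.8 times as high in WT hypertrophic as in *aadd* (exact 95% interval 47.4 to 146, 1218 against 14 reads, counting error only), and 82.9 times without replicate 1. Like the comparison with WT resting, these comparisons set a whole mutant element against 1 WT compartment. Genotype and stage of maturation cannot be told apart in them, and they share the *aadd* libraries.

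Over the 4 groups at once, limma's moderated F test gave adjusted *P* = 0.00044 for *Dlx3*, 0.00077 for *Dlx5* and 0.022 for *Dlx6*, against a background of 31.0% of genes at or under an unadjusted *P* of 0.05. Without WT hypertrophic replicate 1 the adjusted *P* values were 0.00037, 0.00073 and 0.030. With all libraries and no filter on low values they were 0.0022, 0.0043 and 0.063. The order of the *Dlx5* levels was WT hypertrophic, WT proliferative, *aadd* and WT resting, in which the first 2 and the last 2 neighbours did not pass the criteria for a difference. The order of the *Dlx3* levels was WT hypertrophic, WT proliferative, WT resting and *aadd*, in which each neighbour differed by the unadjusted criteria. For *Dlx6* the order was that of *Dlx5*, with none of the 3 neighbouring steps past the criteria.

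A list of 28 genes around the Dlx family (RNA genes of the loci, BMP ligands and receptors, partners and competitors, skeletal transcription factors, and matrix and signalling genes downstream) was followed in the same fits, and 21 passed the filter. It was drawn up with earlier results of these data known. Between WT proliferative and WT resting, 9 of the 21 rose and none fell, with a median log2 fold change of 0.75 against -0.06 over all genes, of which 2.56% were called higher and 2.97% lower. Between WT hypertrophic and WT proliferative 4 rose and 2 fell (median 0.28 against 0.04, with 5.32% of all genes called higher and 4.34% lower). Without WT hypertrophic replicate 1 these were 6 and 6 (median -0.01 against 0.07, 9.79% called higher and 8.56% lower). The 6 that fell then were *Bmpr1b*, *Hand2*, *Ihh*, *Msx2*, *Runx3* and *Sox9*. Between WT hypertrophic and WT resting 11 rose and 2 fell (1.07 against -0.02, 5.84% called higher and 7.2% lower), and 10 and 2 without that library (0.72 against 0.00, 9.42% and 9.83%). Many of these genes were chosen for their place in bone formation, so the counts describe this list only.

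**Figure D4:**
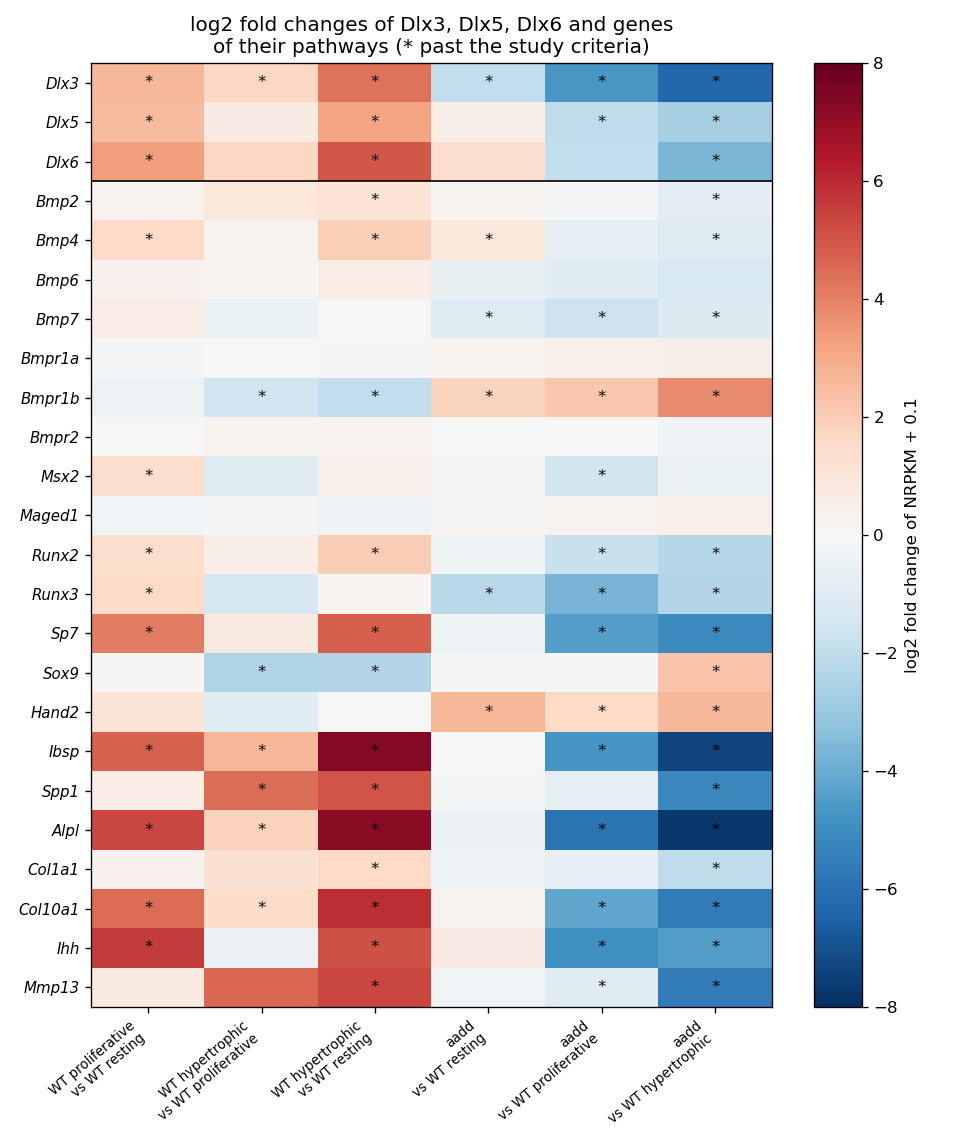
Log2 fold changes of *Dlx3*, *Dlx5* and *Dlx6* (above the line) and of the 21 genes of the list that passed the filter (rows) in the 6 pairwise comparisons (columns), as colours from -8 to 8 on log2(NRPKM + 0.1), with an asterisk where the study's criteria were met. The deepest red is that of *Ibsp*, at 7.34 in WT hypertrophic against WT resting, and the deepest blue that of *Alpl*, at -7.69 in *aadd* against WT hypertrophic, while *Maged1* has no asterisk in any column.

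Among the BMP genes, which signal upstream of Dlx genes, *Bmp4* rose from WT resting to WT proliferative (log2 1.59, adjusted *P* = 0.11), and *Bmp4* (1.90, adjusted *P* = 0.045) and *Bmp2* (1.07, adjusted *P* = 0.14) were higher in WT hypertrophic than in WT resting. The receptor gene *Bmpr1b* was lower there (log2 -1.98, adjusted *P* = 0.081). The calls on *Bmp4* (1.58) and *Bmpr1b* (-2.56) held without WT hypertrophic replicate 1, and that on *Bmp2* (0.71) was lost. With all libraries, the other receptor genes *Bmpr1a* and *Bmpr2* met the criteria in none of the 6 pairwise comparisons. Without WT hypertrophic replicate 1, *Bmpr1a* was higher in *aadd* than in WT hypertrophic (log2 0.65, adjusted *P* = 0.05). Of the competitors, *Msx2* rose in WT proliferative (log2 1.39, adjusted *P* = 0.027) and did not differ by the criteria between WT hypertrophic and WT resting (0.42, adjusted *P* = 0.32), unlike *Dlx3* and *Dlx5*, although this contrast between genes was not tested. Without WT hypertrophic replicate 1, *Msx2* was lower in WT hypertrophic than in WT proliferative (log2 -1.165, adjusted *P* = 0.025). *Msx1* did not pass the filter, and *Maged1*, whose protein binds Dlx proteins, was at 141 to 215 NRPKM throughout.

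Of the 5 skeletal transcription factors tested, *Runx2*, *Runx3* and *Sp7* rose from WT resting to WT proliferative. *Runx2*, the master regulator of bone and of hypertrophic cartilage, rose by 1.43 on the log2 scale (adjusted *P* = 0.086), and *Sp7*, which acts downstream of it in osteoblasts, by 4.10 (adjusted *P* = 0.075). Without WT hypertrophic replicate 1, *Runx3* was lower in WT hypertrophic than in WT proliferative (log2 -2.09, adjusted *P* = 0.0063). *Sox9*, the factor that keeps cells chondrogenic, was lower in WT hypertrophic than in WT resting (log2 -2.35, adjusted *P* = 0.16), and this rested on replicates 2 and 3, at 12.9 and 17.6 NRPKM, while replicate 1 was at 143 NRPKM. Without replicate 1 its log2 fold change was -3.42 (adjusted *P* = 0.00082).

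From WT resting to WT hypertrophic all 7 downstream genes tested rose, with a median of 5.36, among them the bone sialoprotein gene *Ibsp* (log2 7.34, adjusted *P* = 0.00018), the alkaline phosphatase gene *Alpl* (7.21, adjusted *P* = 0.00097) and the hypertrophic collagen gene *Col10a1* (5.93, adjusted *P* = 0.0022). All 7 calls held without WT hypertrophic replicate 1, with *Ibsp* at 7.56, *Alpl* at 7.28 and *Col10a1* at 5.77. *Mmp13* (5.36, adjusted *P* = 0.17) and *Spp1*, the osteopontin gene (5.02, adjusted *P* = 0.094), were high in WT hypertrophic replicates 2 and 3 alone, unlike *Dlx3*, *Dlx5* and *Dlx6*, which were as high in replicate 1. Without replicate 1 *Mmp13* was at 7.96 (adjusted *P* = 0.00017) and *Spp1* at 6.82 (adjusted *P* = 0.00057).

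Between *aadd* and WT resting, where *Dlx3* was lower, 3 genes of the list were higher and 2 lower (median -0.07 against 0.01), with 3.78% of all genes called higher and 2.78% lower. *Hand2* (log2 2.63, adjusted *P* = 0.45), *Bmpr1b* (1.78, adjusted *P* = 0.21) and *Bmp4* (0.87, adjusted *P* = 0.51) were the higher and *Runx3* (-2.22, adjusted *P* = 0.13) and *Bmp7* (-1.05, adjusted *P* = 0.43) the lower. *Runx2* and *Sp7* did not meet the criteria, at -0.33 (adjusted *P* = 0.77) and -0.32 (adjusted *P* = 0.91), and none of the 7 downstream genes did. Against WT proliferative 2 were higher and 10 lower (median -0.95 against 0.05, 9.82% of all genes called higher and 6.02% lower). Against WT hypertrophic 3 were higher and 13 lower (-1.19 against 0.01, 12.2% called higher and 9.7% lower). Without WT hypertrophic replicate 1 these were 4 and 11 (-0.83 against -0.004, 18% of all genes called higher and 16.1% lower).

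Genes near the pairs were followed beside the members. Of 9 other rows within 250 kb of *Dlx1* and *Dlx2* 4 passed the filter, of 15 around *Dlx3* and *Dlx4* 7 did, and of 5 around *Dlx5* and *Dlx6* 1 did. With all libraries, none of these 12 genes met the criteria in WT proliferative against WT resting, WT hypertrophic against WT proliferative or *aadd* against WT resting. In these comparisons 2.56%, 5.32% and 3.78% of all genes were called higher and 2.97%, 4.34% and 2.78% lower. The lack of calls among 12 genes is near these shares and says little. Whether the members moved alone was not tested. The one near *Dlx5* and *Dlx6* was *Acn9*, 74 kb from the pair, which was at 6.66, 2.27 and 3.31 NRPKM in WT resting, 7.64, 4.90 and 6.89 in WT proliferative, 8.36, 12.5 and 7.56 in WT hypertrophic and 7.84, 4.86 and 7.16 in *aadd*. It was higher in WT hypertrophic than in WT resting (log2 1.30, adjusted *P* = 0.11, and 1.37 without WT hypertrophic replicate 1) and met the criteria in no other pairwise comparison. Near *Dlx3*, the type I collagen gene *Col1a1* lies 168 kb away and was higher in WT hypertrophic than in WT resting (log2 1.58, adjusted *P* = 0.12, and 2.04 without that library) and lower in *aadd* than in WT hypertrophic (-2.002, adjusted *P* = 0.11, and -2.46). *Fam117a*, 191 kb away, moved with *Dlx3* in the same 2 comparisons (1.04, adjusted *P* = 0.12, and -1.39, adjusted *P* = 0.019), and the first of its calls was lost without that library (0.92). Without it, *Col1a1* (log2 1.69, adjusted *P* = 0.086) and *Ppp1r9b* (1.21, adjusted *P* = 0.093) met the criteria as higher in WT hypertrophic than in WT proliferative. In that fit 9.79% of all genes were called higher. *Ppp1r9b*, 113 kb from *Dlx3* and *Dlx4*, was then also lower in *aadd* than in WT hypertrophic (-1.11, adjusted *P* = 0.073), where 16.1% of all genes were called lower. The nearest tested gene to that pair, *Pdk2* at 78.7 kb, was at 9.95 to 28.2 NRPKM over the 12 libraries and higher in *aadd* than in WT proliferative (log2 0.82, adjusted *P* = 0.17), where *Dlx3* was lower. Near *Dlx1* and *Dlx2*, the integrin gene *Itga6* was lower in *aadd* than in WT proliferative (log2 -1.67, adjusted *P* = 0.075) and than in WT hypertrophic (-1.64, adjusted *P* = 0.086, and -2.07 without replicate 1). *Slc25a12*, a mitochondrial carrier gene near the same pair, was higher in *aadd* in both comparisons (log2 0.86, adjusted *P* = 0.070, and 0.91, adjusted *P* = 0.083, or 0.68 without replicate 1).

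Likeness to a member was measured as Pearson's *r* of log2(NRPKM + 0.1) over the 12 libraries, which share the 4 groups, among 10935 genes. It is a description, since the compartments drive any such *r*. The gene most like *Dlx5* was *Shfm1*, with *r* = 0.985, and 0.878 after the group means were taken off. *Shfm1*, which encodes a small proteasome subunit and is named after the human split hand and foot malformation locus that also holds DLX5 and DLX6, lies at chr6:6558275-6578658. This is 285 kb from the pair and so just outside the 250 kb looked at. *Shfm1* was at 56.0, 39.6 and 41.4 NRPKM in WT resting, 73.9, 67.1 and 72.0 in WT proliferative, 77.3, 89.3 and 84.0 in WT hypertrophic and 45.4, 50.4 and 52.3 in *aadd*. In WT resting its replicate 1 was the highest, as for *Dlx5*.

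The sizes of change differed, since *Shfm1* rose by 0.88 on the log2 scale from WT resting to WT hypertrophic (95% interval 0.41 to 1.36, adjusted *P* = 0.053, and 0.94 without WT hypertrophic replicate 1), under an FC of 2, where *Dlx5* rose by 3.15. *Shfm1* was 0.937 to 7.09 times as high as *Dlx5*. Next in likeness to *Dlx5* came *Loxl4*, *Foxo1*, *Gm10629* and *Tmsb10*, with *r* of 0.956 to 0.969.

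**Figure D5:**
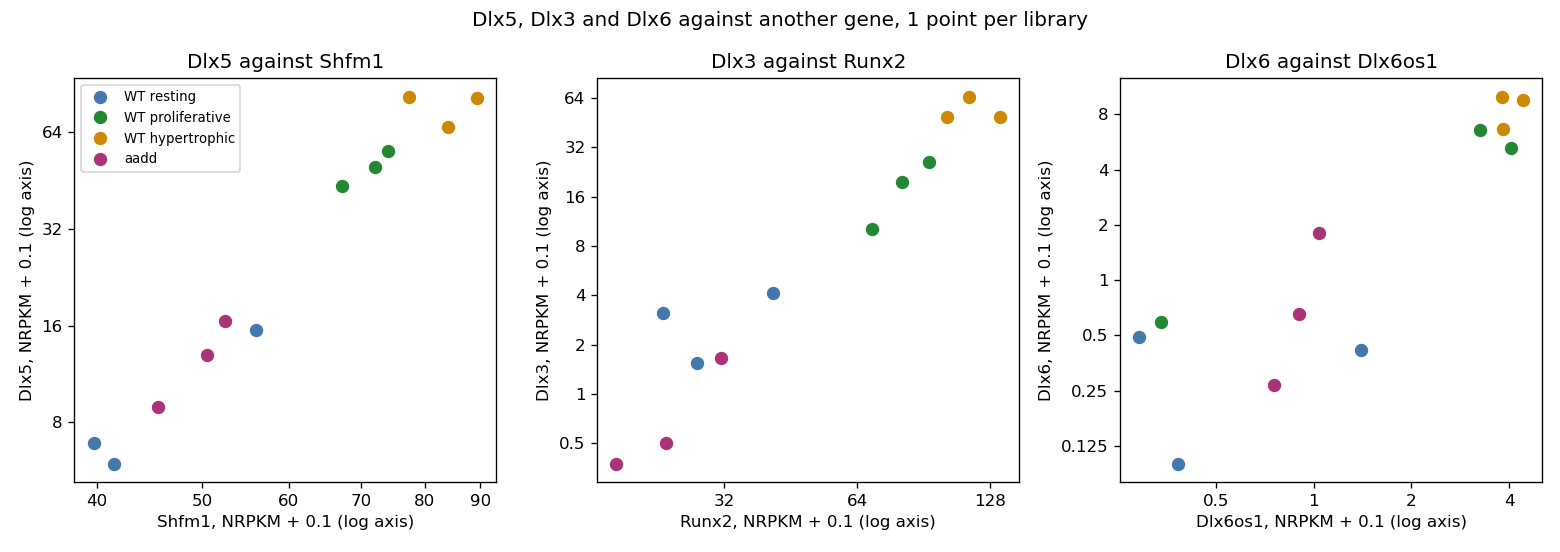
NRPKM + 0.1 on log axes of *Dlx5* against *Shfm1*, *Dlx3* against *Runx2* and *Dlx6* against *Dlx6os1* (vertical against horizontal), with 1 point for each of the 12 libraries, coloured by group. *Dlx5* and *Shfm1* rise together (*r* = 0.985 over the 12 libraries), and the 2 lowest *Dlx3* points are those of *aadd* replicates 1 and 3.

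The genes most like *Dlx3* were *Runx2* (*r* = 0.966), *Alpl* (0.962), *St3gal5*, *Dpysl3* and *Unc5b* (0.954 to 0.957), and *Sp7* was at rank 8 (0.95). *Dlx5* came only at rank 104 (0.870) and *Dlx6* at 276 (0.787). Over the 9 WT libraries alone *r* between *Dlx3* and *Dlx5* was 0.948. The genes most like *Dlx6* were *Ubl7*, *Slc9a2*, *Ddx59*, *Pdlim7* and *Ankrd44* (0.927 to 0.955), and its linked partner *Dlx5* was at rank 24 (0.887). With 1 or 2 reads behind several *Dlx6* values, its ranks are the least certain of the 3.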

How the data were processed

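The authors aligned the reads to mm10 (TopHat is named in the submitters' processing notes), dropped reads of low quality, with several alignments or in duplicate, and used GeneSpring for the expression values. The values deposited are RPKM, normalized further between libraries by the authors (NRPKM), on a linear scale before any filter. The normalization between libraries and the use of strand are not given in the sources used here.

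The members and gene lists were chosen with earlier results of these data known. Genes named are the 6 members, the list of 28 genes by role (1 further gene of the lists is not reported here), rows within 250 kb of each pair, and for each member tested the 5 genes with the highest *r*. The tests used log2(NRPKM + 0.1) with limma 3.58.1 under R 4.3.3, the 6 libraries of each comparison, no covariate and Benjamini-Hochberg adjustment over 10936 genes. Tables and plots used Python 3.11.15 with matplotlib 3.10.9, pandas 2.3.3 and numpy 2.4.6. The procedure was tested on simulated data.

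Reads per gene were estimated from the commonest value of 1748 single-exon genes (receptors and keratin-associated proteins), taken as 1 read, and the longest GENCODE transcript of each gene. Intervals of ratios are exact conditional binomial 95% intervals on rounded reads and cover counting error only.

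Replicate numbers were checked as pairs. Between WT resting and WT proliferative, libraries of the same number deviated from their group means with correlations of 0.281, 0.179 and 0.198, which was taken as pairing, and the other pairs of groups did not all exceed 0.1. Fits with the number as a block, a pseudocount of 1, no filter, the filter over the 6 libraries compared, 2 rescalings, all 12 libraries in one fit, a variance trend and each library left out were run as alternatives.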

Additional observations from a re-analysis of the deposited data

How the results depend on the processing

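The number of members past the criteria was recomputed under each alternative. With no filter on low values *Dlx4* entered the test, and it was 2 between WT hypertrophic and WT proliferative against 1. It was then 4 against 3 between WT hypertrophic and WT resting, between *aadd* and WT hypertrophic and over the 4 groups. The shares of all rows called in these 3 pairwise directions were 4.41%, 5.95% and 7.1%, and 4480 of 23070 rows were called over the 4 groups. With the filter over the 6 libraries compared it was 2 against 3 between WT proliferative and WT resting, where *Dlx6* no longer passes. Between *aadd* and WT resting it was 1, and it was 0 with the filter taken over the 6 libraries compared, where *Dlx3* no longer passes. With 1 library left out it ranged from 0 to 2 in that comparison, 0 without *aadd* replicate 3 and 2 (*Dlx3* and *Dlx5*) without WT resting replicate 1. With 1 library left out it also ranged from 2 to 3 between WT proliferative and WT resting and between *aadd* and WT proliferative. In those fits it was 1 throughout between WT hypertrophic and WT proliferative, and 3 throughout in the other comparisons. With the replicate block 3 members remained called between WT proliferative and WT resting, with adjusted *P* = 0.039 for *Dlx3*, 0.073 for *Dlx5* and 0.23 for *Dlx6*, and the block changed no call of a member in any comparison. With no filter the adjusted *P* passed 0.05 for *Dlx3* (0.095) and *Dlx5* (0.083) in *aadd* against WT proliferative. It did so for *Dlx5* (0.051) and *Dlx6* (0.057) in WT hypertrophic against WT resting. For *Dlx6* it also did in *aadd* against WT hypertrophic (0.099) and over the 4 groups (0.063). No log2 fold change of *Dlx3*, *Dlx5* or *Dlx6* changed sign. Of 302 recomputed values 5 lost and 3 gained a call by the unadjusted criteria, all with a library left out. The calls of all genes on which the percentages rest moved more, from 1057 to between 658 and 2007 for WT hypertrophic against WT proliferative (fewest without WT hypertrophic replicate 3 and most without replicate 1), from 605 to 446 to 1495 for WT proliferative against WT resting, and from 717 to 528 to 1267 for *aadd* against WT resting. The calls of the 21 listed genes ranged from 3 to 12 around 6 in WT hypertrophic against WT proliferative (12 without WT hypertrophic replicate 1) and from 3 to 5 around 5 in *aadd* against WT resting, and of 111 calls on named genes other than the members 82 were kept under every alternative and none changed direction. Among those lost under several were calls on *Sox9*, *Mmp13*, *Spp1*, *Bmp2*, *Bmp4*, *Bmp7*, *Bmpr1b*, *Col1a1*, *Hand2*, *Acn9*, *Fam117a* and *Pdk2*. The fits of *Dlx2*, *Dlx4* and *Dlx6os1* and the read ratios without 1 library were added after the data were seen. Rescaling moved the median of all genes by less than 0.1 on the log2 scale. Depth limited *Dlx1*, *Dlx2* and *Dlx4* throughout and *Dlx6* in WT resting and *aadd*, where a few reads set the values. The causes of these changes were not tested.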
